A study of Mus musculus with 44 samples.

Results

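The genes described here encode the proteins of the cytosolic ribosome and were followed through the open chromatin at their ends in cultured mouse cortical neurons. They are the autosomal protein-coding genes of the mouse build mm10 whose symbol is Rpl or Rps with a number, an optional final letter or l, and P0 to P2, without the Rps6k kinase genes. The rule found 77 genes, 48 Rpl and 29 Rps genes on 18 chromosomes, among 20665 autosomal protein-coding genes. A gene was followed through its interval, which is the best-ranked open interval within 1 kb of either gene end in a library.

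Rps proteins build the small ribosomal subunit together with its ribosomal RNA, and Rpl proteins build the large subunit. Their genes are housekeeping genes that nearly every cell transcribes strongly, from short open promoters that factors of the ETS, YY1 and SP families are known to bind. Many of their transcripts begin in a run of C and T bases, the 5′ terminal oligopyrimidine tract, through which mTOR signalling controls their translation.

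The assay was ATAC-seq, in which a transposase cuts DNA that it can reach, on primary neurons dissected from mouse cortex at embryonic day 16.5. The 44 libraries formed 22 groups of 2 libraries in 3 experiments. Wells of every group were silenced overnight with 1 µM tetrodotoxin and 100 µM D-AP5, KCl wells were then depolarized with 50 mM KCl, and DNase was present in the wells during the treatments. In the drug experiment, 16 libraries at 7 days in vitro (DIV7), wild-type neurons had 100 nM FHT1015, an inhibitor of the ATPase of the BAF chromatin remodelling complex, or 0.1% DMSO, for 10 or 30 min, each with or without KCl. In the Arid2 experiment, 8 libraries at DIV7, neurons were infected with guides against Arid2 (Arid2KO), a subunit of the PBAF form of the complex, or with non-targeting guides, and had KCl for 30 min or none. At DIV18, 20 libraries came from 5 genotypes, each with KCl for 30 min or none. These were Smarcc2KO neurons given back Smarcc2 S586E, S586A or wild type (WT), Smarcc2KO neurons with a vector, and neurons with non-targeting guides and a vector. Smarcc2 encodes a core subunit of BAF, S586E replaces a serine by the negatively charged glutamate and S586A by alanine, which cannot be phosphorylated. The knockouts are guide-infected cultures rather than clones, and the loss of the target was not measured here. The embryo's cortex is the stated biological replicate, but no label ties a library to an embryo, so p-values measure only the spread between these libraries.

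The libraries held 133009 to 276666 intervals on the autosomes, and read depth was unknown. All 8 neuron marker genes held an interval in 44 of 44 libraries, with a median mean rank score of 4.37 (defined below with the levels), against 0 of 4 microglia markers, 1 of 4 vascular, 2 of 4 oligodendrocyte and 3 of 4 astrocyte markers. Of 4 inhibitory neuron markers 1 was held in 44 of 44 libraries, with a median score of 2.08 over the 4. The astrocyte markers had a median score of 3.02 and the microglia markers 0.11. Each library is a bulk culture, in which a change in a share of the cells and a change in every cell cannot be told apart.

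The promoter sequences shown belong to 6 genes whose changes are described below and are given so that their letters can be read beside them. They were taken from RefSeq's annotation of mm10 (GRCm38.p6), from 250 bases before to 50 bases after the gene's start. Capitals mark matches, on either strand, to CCGGAAG (ETS/GABP), GGGCGG (SP), AANATGGCG (YY1), GCATGCGC (NRF1) or CACGTG (E-box), and a run of at least 5 C or T bases that begins within 5 bases of the start. Rpl41 lies on the minus strand at chr10:128549119-128549418, Rpl13a on the minus strand at chr7:45128696-45128995 and Rpl15 on the minus strand at chr14:18270937-18271236. Rpl37a lies on the plus strand at chr1:72711010-72711309, Rps25 on the plus strand at chr9:44407464-44407763 and Rps27 on the minus strand at chr3:90213599-90213898.
Rpl41: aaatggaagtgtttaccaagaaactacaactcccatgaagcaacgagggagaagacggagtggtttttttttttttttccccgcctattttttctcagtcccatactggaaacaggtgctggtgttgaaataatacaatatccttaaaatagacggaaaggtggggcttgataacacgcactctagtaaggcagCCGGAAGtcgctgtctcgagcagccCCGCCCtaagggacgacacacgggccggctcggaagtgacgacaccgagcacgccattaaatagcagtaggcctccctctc
Rpl13a: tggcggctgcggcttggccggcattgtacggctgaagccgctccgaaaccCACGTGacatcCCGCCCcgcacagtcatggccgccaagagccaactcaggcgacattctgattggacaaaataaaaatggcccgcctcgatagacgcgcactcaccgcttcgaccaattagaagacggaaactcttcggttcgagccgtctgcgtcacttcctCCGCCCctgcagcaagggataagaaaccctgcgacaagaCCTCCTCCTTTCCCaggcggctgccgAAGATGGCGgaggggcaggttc
Rpl15: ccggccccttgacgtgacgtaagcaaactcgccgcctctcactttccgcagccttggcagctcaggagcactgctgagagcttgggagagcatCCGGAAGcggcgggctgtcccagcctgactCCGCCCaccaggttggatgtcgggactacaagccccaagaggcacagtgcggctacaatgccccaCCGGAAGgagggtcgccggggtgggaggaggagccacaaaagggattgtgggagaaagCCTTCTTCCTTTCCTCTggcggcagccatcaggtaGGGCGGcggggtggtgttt
Rpl37a: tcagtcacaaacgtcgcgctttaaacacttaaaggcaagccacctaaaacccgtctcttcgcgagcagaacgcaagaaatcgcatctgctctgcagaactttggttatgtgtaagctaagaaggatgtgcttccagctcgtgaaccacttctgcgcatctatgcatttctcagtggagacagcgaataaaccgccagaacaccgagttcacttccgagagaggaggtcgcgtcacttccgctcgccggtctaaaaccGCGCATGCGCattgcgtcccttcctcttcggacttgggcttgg
Rps25: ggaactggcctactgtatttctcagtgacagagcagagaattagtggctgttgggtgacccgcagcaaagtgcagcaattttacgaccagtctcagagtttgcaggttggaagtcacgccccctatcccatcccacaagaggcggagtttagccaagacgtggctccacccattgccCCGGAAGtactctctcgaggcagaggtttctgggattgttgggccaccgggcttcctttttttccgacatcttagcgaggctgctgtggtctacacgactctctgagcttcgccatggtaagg
Rps27: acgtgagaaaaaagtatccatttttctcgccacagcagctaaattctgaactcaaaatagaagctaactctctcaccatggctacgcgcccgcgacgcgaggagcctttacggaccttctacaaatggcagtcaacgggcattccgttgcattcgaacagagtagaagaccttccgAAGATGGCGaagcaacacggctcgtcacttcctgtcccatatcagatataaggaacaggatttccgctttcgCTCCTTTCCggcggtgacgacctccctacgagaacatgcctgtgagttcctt

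RefSeq promoters were matched by symbol for 57 of the 77 genes. The ETS/GABP letters stood in 22 of these 57 promoters (38.6%), against 12.3% of 16457 promoters of the same length. Rpl15 holds them at 2 places, Rpl41 and Rps25 at 1. A C/T run at the start was found in 24 (42.1%), against 21.9% of all promoters, and the SP letters in 32 (56.1%), against 47.3%. The YY1 letters were in 5 (8.77%), against 3.28%, among them Rpl13a and Rps27. The cyclic AMP response element TGACGTCA was also in 5 (8.77%), against 2.40%. The AP-1 letters TGANTCA were in 1 (1.75%), against 7.12%, the TATA box TATAAA in 5 (8.77%), against 13.5%, the NRF1 letters in 2 (3.51%), against 3.66%, and the E-box in 5 (8.77%), against 7.97%. Both strands were searched, and a promoter was counted for each motif it held. The median GC content was 57.0% in the matched genes and 56.7% in all promoters. These matches describe letters and not binding.

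Open intervals stood at nearly all ribosomal protein genes in every library. Of the 77 genes, 73 held an interval in 44 of 44 libraries, and a library held 73 to 75 of them. So did 12077 of all 20665 genes, 75 of 78 mitochondrial ribosomal protein genes and 65 of 68 translation initiation and elongation factors. Among proteasome subunits it was 43 of 47, and among genes of rRNA processing and RNA polymerase I 26 of 29. Holding an interval in every library was thus not particular to the ribosomal protein genes. Rpl17 held one in 33 libraries and Rpl39l, the paralog of the X-linked Rpl39, in 12, all at DIV18 and at ranks 59662 to 159184. Rpl10l, a paralog expressed in testis, and Rpl32l held none. Levels are given as the rank of the interval by the authors' −log10 p, with rank 1 at the top of a library, or as a rank score, log2(133009 / rank), where 133009 is the number of intervals in the shortest list, so that a rise of 1 means a rank number divided by 2.

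Over the 77 genes the median of the mean rank scores was 5.10, against 4.01 over 14395 genes held in at least 22 libraries. Above that gene median lay 66 of the 77, and 10 lay in the top 10%. Rpl genes had a median score of 4.95 and Rps genes 5.12. Neighbouring lists had 5.26 (7 ribosomal protein genes that the rule leaves out, such as Rpsa and Fau), 4.36 (78 mitochondrial ribosomal protein genes), 4.84 (68 translation initiation and elongation factors), 4.89 (29 genes of rRNA processing and RNA polymerase I) and 4.40 (47 proteasome subunits). No test was made between lists.

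Rpl15 stood near the top, with ranks of 61 to 741 over the 44 libraries and a median of 295.5. Rps19, a gene mutated in Diamond-Blackfan anaemia, had ranks of 210 to 1195 with a median of 615. These ranges overlap, and the difference between Rpl15 and Rps19 was not tested. At the other end Rpl37a had ranks of 12621 to 75336 with a median of 21235.5, outside the range of each of the 5 highest genes. Rplp0, the base of the ribosomal stalk, had a median rank of 987.5 and Rps6, the substrate of S6 kinase, one of 2311.

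**Figure D1:**
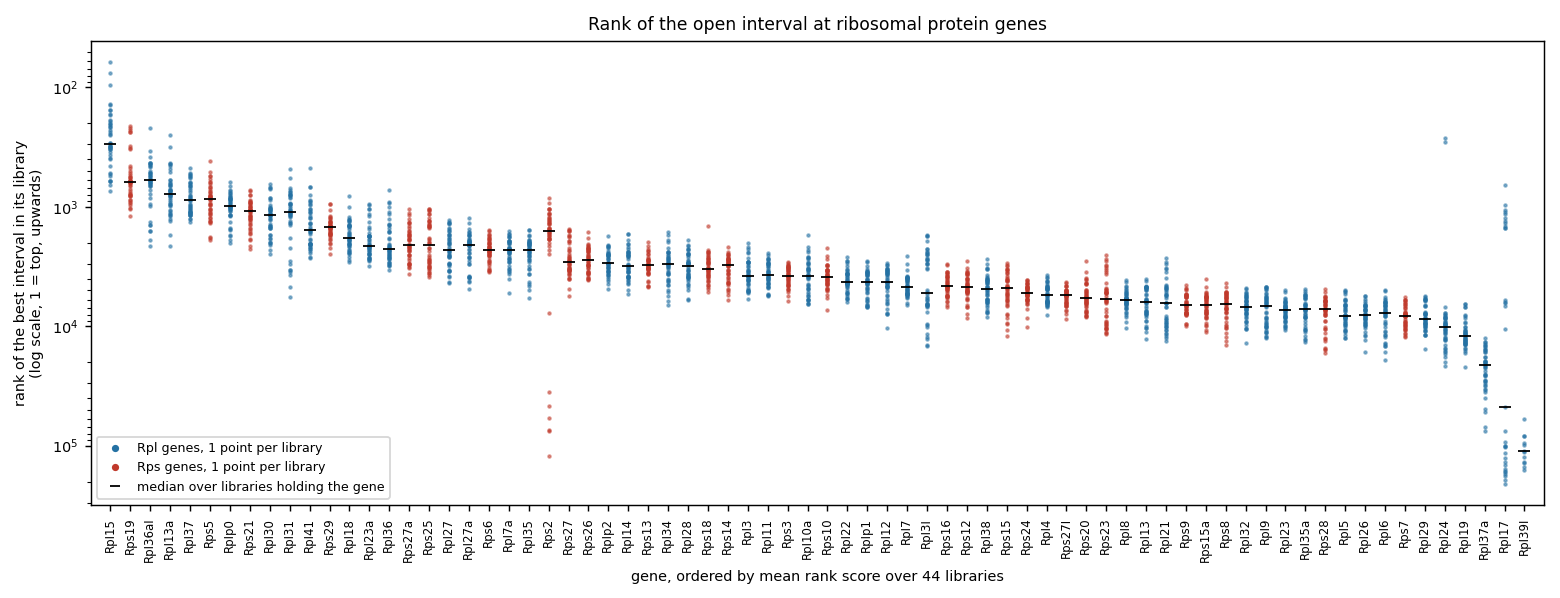
Rank of the interval (log axis, rank 1 upwards) at 72 of the 75 ribosomal protein genes held in at least 1 library, ordered by mean rank score. Points are the 44 libraries, blue for Rpl and red for Rps genes, and bars are medians. Most genes stay within a narrow band, whereas Rps2, Rpl17 and Rpl24 have libraries far from their median.

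A few genes held very different ranks in the 3 experiments. Rps2 ranked 849 to 1994 in the drug experiment and 936 to 2465 at DIV18, but 1390 to 122819 in the Arid2 experiment, with a median of 52735.5 there. Its best summit moved over 4454 bp between libraries and Rnf151 lies 64 bp from it, so these are ranks of the best interval near Rps2, which need not be the one at its start. Rpl17, whose best summit moved over 5761 bp, was held in 0 of 8 Arid2 libraries. Rpl3l, the muscle paralog of Rpl3, ranked 1731 to 3343 at DIV18, 4984 to 7632 in the drug experiment and 9545 to 14668 in the Arid2 experiment. Its best summit lay 8732 bp from its start and 415 bp from its other end.

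The interval mostly lay at the promoter. Among 54 genes with a RefSeq start and an interval in every library, the median summit lay within 250 bp of the start in 44 and upstream of it in 39, with a median of -53.25 bp. Another gene's end lay within 1 kb of 28 of the 77 genes, and 24 shared the interval with another gene in most libraries. Rpl41 (next to Zc3h10 at 102 bp), Rpl7a (next to Med22 at 43 bp), Rpl15 (next to Nkiras1 at 150 bp) and Rps27 (next to Rab13 at 67 bp) are such pairs, so an interval there is not the ribosomal protein gene's alone.

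Mean interval width had a median of 1602 bp over the genes, against 1428 bp over the 14395 genes. Rpl41, which encodes the shortest ribosomal protein, had the widest interval. It averaged 3324 bp, with a range of 868 to 5162 bp, and spanned both ends of the 1059 bp gene in 93.2% of libraries. Rpl7 (2977 bp), Rpl7a (2774 bp), Rpl3 (2730 bp) and Rpl13a (2489 bp) came next. The narrowest among genes held in every library were Rps26 (977 bp), Rpl6 (1090 bp) and Rpl37a (1090 bp). Over the 73 genes held in every library, mean score and mean width had a Spearman rho of 0.48, as a description across genes that share their libraries.

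At DIV18, 25 of the 73 ribosomal protein genes tested had a wider interval with KCl and 0 a narrower one at an adjusted p under 0.05 (limma, Benjamini-Hochberg over 13106 genes), against 33.7% of all genes wider and 2.04% narrower. The median change was 0.15 on the log2 scale, against 0.16 over all genes. Wider intervals were called for 18 of 44 Rpl genes and 7 of 29 Rps genes. The median width of the ribosomal protein intervals was 1542 to 1715 bp per KCl library and 1279 to 1557 bp per unstimulated library. The share called is near the background of all genes. With the summed width of all intervals at a gene 24 were wider and 6 narrower. The shares of all genes given above belong to the best interval and are not the background of these 2 counts.

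Rpl3, whose protein lies near the peptidyl transferase centre, had the largest change. Its interval measured 3655 and 2472 bp (S586E), 3563 and 3860 bp (S586A), 3858 and 3579 bp (WT), 3818 and 3836 bp (vector) and 3843 and 1498 bp (non-targeting) in the KCl libraries. The unstimulated libraries had 1292 and 1542 bp (S586E), 1540 and 2432 bp (S586A), 1534 and 1523 bp (WT), 1513 and 1564 bp (vector) and 1303 and 1533 bp (non-targeting). The widths thus fell mostly into a wide and a narrow form, with 1 narrow KCl library and an intermediate library on each side, and the groups overlapped. The change was 1.08 ± 0.15 (SE, log2; adjusted p = 0.000406).

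Rpl41 measured 4048, 4308.5 and 5162 bp (lowest, median and highest of 10 KCl libraries), against 868, 2753 and 3363 bp in the 10 unstimulated libraries. No KCl library was as narrow as an unstimulated one, and the change was 0.97 ± 0.22 (adjusted p = 0.00666). Rpl7a had 2425, 3294 and 7765 bp with KCl, against 1647, 1949.5 and 2444 bp without (0.87 ± 0.18, adjusted p = 0.00437). Rps27, which encodes a zinc finger protein of the small subunit, had 1237, 1754 and 1896 bp with KCl, against 836, 1031 and 1235 bp without. Its groups did not overlap (0.72 ± 0.09, adjusted p = 0.000242). Rpl24 also stood apart in every library, at 1520, 1927 and 3602 bp with KCl, against 1012, 1221.5 and 1509 bp without (0.74 ± 0.16, adjusted p = 0.00526). Over the 44 libraries its best summit moved over 7417 bp, and Zbtb11 lies 0 bp from Rpl24. The interval measured need not be the one at its start. Of the 25 calls, 20 remained with any 1 library left out.

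**Figure D2:**
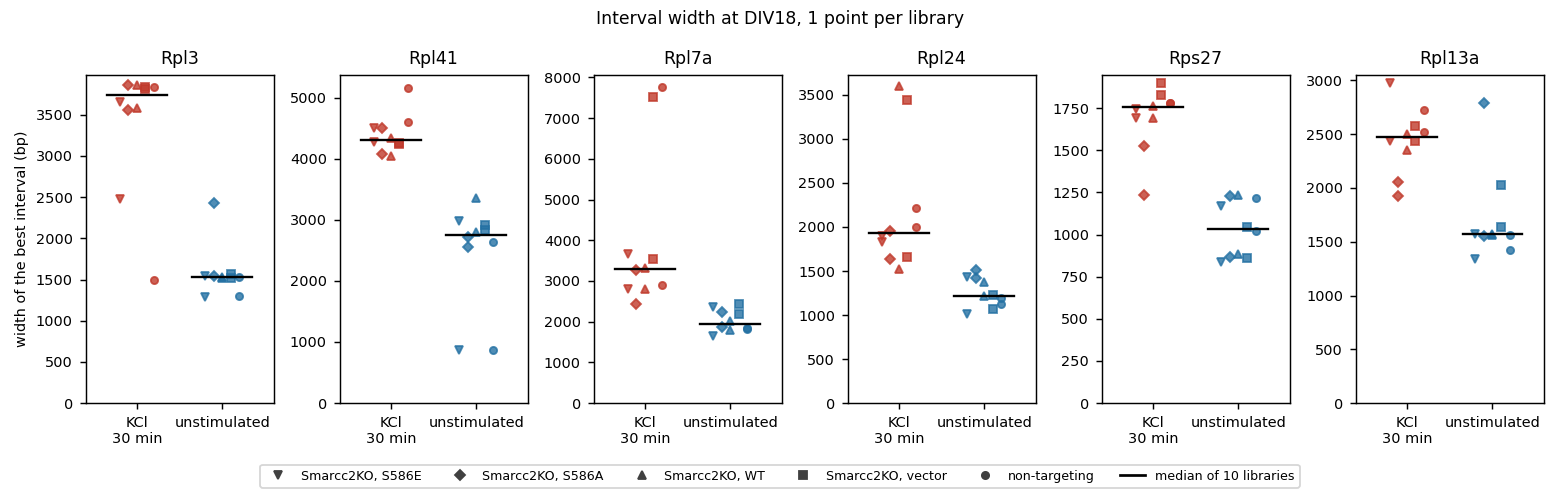
Width of the interval (bp, linear axis from 0) at 6 ribosomal protein genes at DIV18, KCl libraries left (red) and unstimulated libraries right (blue). Each point is 1 library, its shape gives the genotype and the bar is the median of 10 libraries. Rpl41, Rps27 and Rpl24 do not overlap between states, and Rpl3 has 1 KCl library at 1498 bp among 9 wider ones.

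Merging was counted in pairs of 1 KCl and 1 unstimulated library of a genotype. A gene was counted when its KCl interval overlapped at least 2 separate intervals of the unstimulated library, and the reverse was counted the same way. At DIV18 the KCl interval took in 2 or more unstimulated intervals at 21.3% to 45.3% of the ribosomal protein genes, with a median of 30.9% over 20 pairs. The reverse happened at 4% to 23.0%, with a median of 13.5%. The first share was the larger in 20 of 20 pairs. Over all genes the same shares were 24.4% to 42.7% and 5.07% to 20.6%, and the share of the ribosomal protein genes lay above the share of all genes in 9 of 20 pairs. The DIV18 libraries had 162079 to 221955 intervals with KCl, against 186416 to 261710 without. The part of interval number in the DIV18 shares was not tested.

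The KCl interval took in several unstimulated ones in at least 10 of the 20 pairs at 20 genes, and the reverse held at 2, Rpl19 and Rpl10a. Pairs were counted gene by gene for the ribosomal protein genes alone. Over all genes the median share was 29.3%, with 16.1% for the reverse, and the first was the larger in 20 of 20 pairs. At Rpl19 the best summit moved over 12238 bp between the 44 libraries, so its interval need not be the one at its start. Rpl41, Rpl7a and Rpl13a merged under KCl in 20 of 20 pairs, with the reverse in 1, 4 and 3 pairs. Rpl3 did so in 19 pairs (reverse 0), Rpl31 in 16 (reverse 1) and Rpl15 in 15 (reverse 8). At 12 of the 73 genes held in every library it happened in no pair. Pairs share libraries, so they are not independent.

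In the drug experiment the KCl share exceeded the reverse in fewer library pairs with FHT1015 than with DMSO. At 10 min the KCl interval took in several unstimulated ones at 8.11% to 28.4% of the genes with FHT1015 (reverse 13.5% to 32.4%), against 24.3% to 33.8% with DMSO (reverse 5.41% to 8.11%). At 30 min the shares were 10.96% to 21.6% with FHT1015 (reverse 24.3% to 38.4%), against 25.7% to 28.4% with DMSO (reverse 12.2% to 18.9%). With FHT1015 the KCl share was the larger in 1 of 4 pairs at 10 min and in 0 of 4 at 30 min, and with DMSO in 4 of 4 at both times. Over all genes it was the larger in 2 of 4 pairs at 10 min and in 1 of 4 at 30 min with FHT1015, and in 4 of 4 with DMSO. The shares of all genes at 10 min were 9.11% to 25.1% with FHT1015 (reverse 11.1% to 27.3%), against 24.5% to 27.9% with DMSO (reverse 6.45% to 8.28%). At 30 min they were 10.9% to 26.4% with FHT1015 (reverse 16.9% to 36.8%), against 25.0% to 31.3% with DMSO (reverse 6.96% to 13.4%). In Arid2KO neurons the shares of the ribosomal protein genes were 17.8% to 21.9% (reverse 17.8% to 23.3%), and with non-targeting guides at DIV7 13.7% to 24.7% (reverse 13.7% to 23.3%). Over all genes they were 17.3% to 22.9% in Arid2KO neurons (reverse 19.3% to 25.0%) and 16.5% to 23.7% with non-targeting guides (reverse 18.7% to 26.9%). At 30 min the FHT1015 libraries had 153003 to 178688 intervals with KCl, against 143439 to 158222 without, and the DMSO libraries 227122 to 239494 with KCl, against 240823 to 276666 without. The part of interval number in these shares was not tested.

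**Figure D3:**
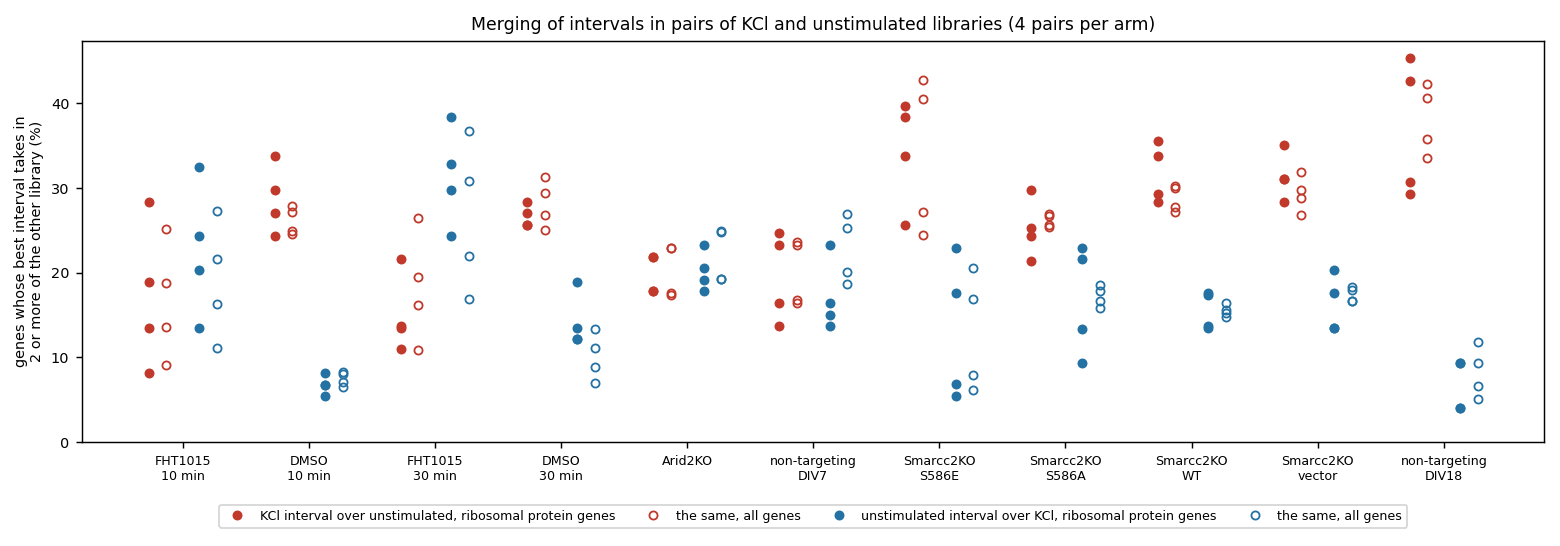
Share (%) of genes whose interval takes in at least 2 intervals of the other library, for the 4 pairs of a KCl and an unstimulated library in each arm. Red gives KCl over unstimulated and blue the reverse, filled for ribosomal protein genes and open for all genes. At DIV18 and in DMSO the red points lie above the blue ones of the same pair, and the filled points stay close to the open ones.

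The ranks at DIV18 moved in both directions with KCl. Of the 75 genes tested, 16 rose and 11 fell, against 34.2% of 14944 genes that rose and 13% that fell, whereas 7 rose and 23 fell with ranks scaled to each library's own list length, against 17.3% and 21.2% of all genes. The median change was -0.0047, against 0.13 over all genes, a gap of -0.14 that was -0.15 with the other scaling. With that scaling the median was -0.19, and also -0.19 for the mitochondrial ribosomal protein genes. It was -0.17 for rRNA processing and RNA polymerase I and -0.12 for translation factors. For proteasome subunits it was -0.093 and for the 7 genes that the rule leaves out -0.066. All 12 early activity genes, such as Fos, Egr1 and Npas4, rose, with a median change of 3.71, and all 12 rose with the other scaling too. The neighbouring lists went both ways. Of 77 mitochondrial ribosomal protein genes 19 rose and 14 fell, and 5 rose and 24 fell with the other scaling. Of 66 translation factors 16 rose and 18 fell, and 4 rose and 25 fell with it.

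Rpl41 ranked 469, 886.5 and 1117 (lowest, median and highest rank number) in the 10 KCl libraries, against 1627, 2242 and 2671 in the unstimulated ones. The ranks did not overlap and the score was higher with KCl in each of the 5 genotypes (1.41 ± 0.12, adjusted p = 8.58e-07). Rpl3 ranked 2008, 2765.5 and 4132 with KCl, against 3534, 4652.5 and 5888 without (0.79 ± 0.11, adjusted p = 5.97e-05), with overlap. Rpl24 had the largest change, 1.62 ± 0.59 (adjusted p = 0.0353), but the change at its start alone was 0.66. Its ranks were 266, 8446 and 10504 with KCl, against 9656, 12982 and 19891 without, and Zbtb11 lies 0 bp from it. With its own start alone the adjusted p was 4.80e-05, and with ranks scaled to list length the call for the interval was lost (adjusted p = 0.0656).

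Rpl13a and Rpl36 fell with KCl. Rpl13a, a host gene of small nucleolar RNAs, ranked 743, 944 and 1262 with KCl, against 252, 592 and 804 without (-0.86 ± 0.22, adjusted p = 0.00452), lower in 5 of 5 genotypes although its interval was wider. Rpl36 ranked 1395, 1923 and 2719 with KCl, against 725, 1129.5 and 1633 without (-0.76 ± 0.13, adjusted p = 0.000270). KCl and unstimulated libraries overlapped at both genes. Of the 27 rank calls, 20 remained with any 1 library left out.

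In DMSO at DIV7 fewer ribosomal protein genes passed the test. With KCl for 10 min 8 of 74 rose and 2 fell, against 9.35% and 2.72% of 14916 genes, and no call remained with every library left out in turn. With ranks scaled to list length 0 rose and 1 fell, against 0.825% and 1.82% of all genes. With KCl for 30 min 9 rose and 5 fell, against 19.5% and 8.4%, and 1 rose and 6 fell with the other scaling, against 6.75% and 8.42%. Median changes were 0.08 and 0.05, against 0.06 and 0.06 over all genes. Of the 12 early activity genes 7 rose at 10 min and 9 at 30 min, and 5 and 7 with ranks scaled to list length.

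At 10 min Rpl30 changed most, with ranks of 713 and 646 with KCl, against 1168 and 1142 without (0.77 ± 0.14, adjusted p = 0.00821). Rpl36 ranked 3053 and 2912 with KCl, against 2101 and 1851 without (-0.60 ± 0.12, adjusted p = 0.0105). Rpl36 was thus lower with KCl at DIV7 and at DIV18. Rpl7 rose by 0.49, but its best summit moved by 532 bp and its change was -0.29 with summits ranked on their own. Rpl21 (0.46) and Rpl8 (0.42) complete the 5 largest calls.

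At 30 min Rpl15 ranked 76 and 61 with KCl, against 138 and 167 without, near the top of each library (1.16 ± 0.32, adjusted p = 0.0192). Rpl23a ranked 2857 and 2701 with KCl, against 1046 and 2122 without (-0.90 ± 0.27, adjusted p = 0.0301), and Rpl10a 6461 and 5124 with KCl, against 3465 and 3896 without (-0.65 ± 0.17, adjusted p = 0.0143). The calls of Rpl15, Rpl23a and Rpl10a were lost when 1 library was left out, at adjusted p of up to 0.102, 0.234 and 0.117. Those of Rpl13a, Rpl9 and Rpl29 remained in each case. Rps27 rose by 0.61 (adjusted p = 0.0203) and was the 1 gene of 73 called wider, with 2100 and 1560 bp with KCl, against 864 and 854 bp without (1.08 ± 0.20, adjusted p = 0.0173). Both Rps27 calls were lost when 1 library was left out, at adjusted p of up to 0.168 in rank, where the change ranged over 0.35 to 0.87, and 0.0943 in width. Over all genes 3.69% were wider and 0.257% narrower at 30 min. At 10 min limma called 0 of 73 in either direction, against 1.15% wider and 0.00755% narrower, with 12 at an unadjusted p under 0.05. Here and below, counts at an unadjusted p are given without the share of all genes at that cutoff. The shares beside them are those at an adjusted p under 0.05, so these counts show no difference from all genes.

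Rpl41 had changes of opposite sign in the 2 DIV7 experiments, of which 1 passed the test. In DMSO its ranks were 2176 and 2165 with KCl for 30 min, against 1537 and 1372 without (-0.58 ± 0.14, adjusted p = 0.0105), a call lost with 1 library left out (adjusted p of up to 0.0666). With non-targeting guides they were 918 and 1357 with KCl, against 1571 and 2034 without (0.68 ± 0.25, adjusted p = 0.447), which did not pass the test. The difference between these experiments, and that from the rise at DIV18, was not tested. In the non-targeting libraries at DIV7 limma called 0 of 73 genes in rank, against 0.114% higher and 0.0568% lower over all genes, and 0 in width, against 0.0159% and 0.0239%. At an unadjusted p under 0.05 there were 5 genes for each measure.

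FHT1015 for 30 min without KCl gave the largest count in rank. Of the 74 genes tested 29 rose and 2 fell, against 25.9% and 9.88% of all genes, but 0 rose and 45 fell with ranks scaled to each list's own length, against 2.12% and 64.2% of all genes. The median of all genes was 0.15, and -0.60 with that scaling, which takes the log2 of each list's length into the score. Relative to all genes, the median of the ribosomal protein genes was higher by 0.16, and by 0.13 with the other scaling. With that scaling their median was -0.47. It was -0.47 at the 7 genes that the rule leaves out and -0.48 at the mitochondrial ribosomal protein genes. For proteasome subunits it was -0.51, for rRNA processing and RNA polymerase I -0.52 and for translation factors -0.56. The gap was thus not particular to the ribosomal protein genes. Of 29 Rps genes 13 rose and 0 fell, and 0 rose and 18 fell with the other scaling. Of 45 Rpl genes 16 rose and 2 fell, and 0 rose and 27 fell with it. With interval number (log2) in the model 0 genes passed in either direction. Of 77 mitochondrial ribosomal protein genes 32 rose and 3 fell, and 2 rose and 49 fell with ranks scaled to list length.

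Rpl37a ranked 12621 and 13527 with FHT1015, against 25490 and 25795 with DMSO (0.97 ± 0.10, adjusted p = 4.79e-05). It was also higher at 10 min, at 15909 and 14747 with FHT1015, against 25244 and 28098 with DMSO (0.80 ± 0.10, adjusted p = 0.000954). Both calls remained with any 1 library left out, and the groups did not overlap. They count among the 12 of 31 calls at 30 min and the 1 of 7 at 10 min that remained. Rps25, a small-subunit protein used by some viral internal ribosome entry sites, ranked 1035 and 1042 with FHT1015, against 2741 and 1822 with DMSO (1.11 ± 0.21, adjusted p = 0.00206). Rpl29 ranked 5562 and 5669 with FHT1015, against 10041 and 8656 with DMSO (0.73 ± 0.11, adjusted p = 0.000543), but changed by -0.045 with ranks scaled to list length. With that scaling 0 of 74 genes were called higher at 10 or 30 min, so the Rpl37a and Rps25 calls were lost too.

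Rpl15 went the other way and kept its direction under both scalings. It ranked 315 and 368 with FHT1015 for 30 min, against 138 and 167 with DMSO (-1.17 ± 0.32, adjusted p = 0.0146), and 326 and 310 at 10 min, against 169 and 139 (-1.05 ± 0.32, adjusted p = 0.0450). With KCl added it ranked 214 and 192 with FHT1015 at 30 min, against 76 and 61 with DMSO. In these 3 comparisons each FHT1015 library was lower than each DMSO library. The 30 min call was lost with 1 library left out (adjusted p of up to 0.0883), as was the 10 min call (up to 0.190).

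At 10 min 6 of 74 genes rose and 1 fell with FHT1015, against 12.4% and 3.16% of all genes, whereas 0 rose and 33 fell with ranks scaled to list length, against 0.858% and 39.4% of all genes. The median change was 0.12, as over all genes. Rpl19 rose by 0.51, Rpl11 by 0.49 and Rpl29 by 0.45, and with the other scaling these were -0.021, -0.046 and -0.081. The best summit at Rpl19 moved over 12238 bp between the 44 libraries, but its median moved by 9 bp between the groups compared here. In width limma called 0 of 73 genes at 10 min, against 0.513% wider and 0.0453% narrower over all genes, with 12 at an unadjusted p under 0.05.

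**Figure D4:**
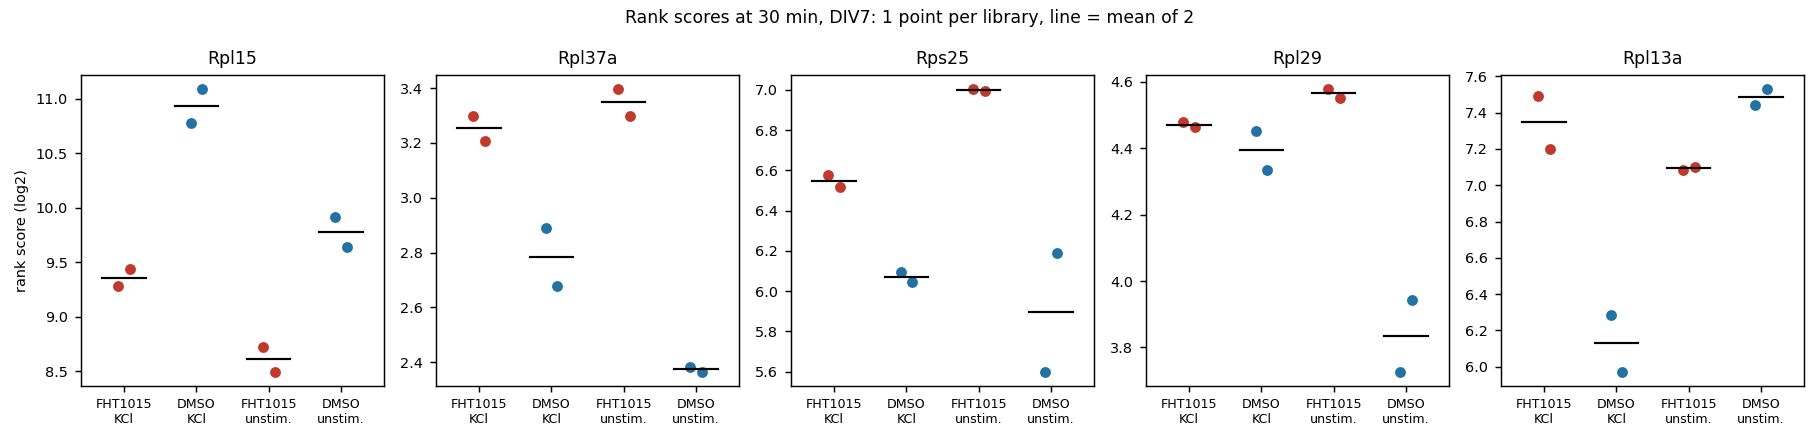
Rank score (log2; the axes do not start at 0) at 5 ribosomal protein genes in the drug experiment at 30 min, 2 libraries per group with their mean as a bar, FHT1015 in red and DMSO in blue. Rpl37a, Rps25 and Rpl29 are higher with FHT1015 without KCl and Rpl15 is lower. With ranks scaled to list length Rpl29 changes by -0.045. Rpl37a, Rps25 and Rpl15 keep their direction then, but Rpl37a and Rps25 are not called. Rpl13a is lowest with DMSO and KCl.

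The Rpl13a interval was wider with FHT1015 for 30 min without KCl. It measured 6692 and 7208 bp with FHT1015, against 3466 and 2232 bp with DMSO (1.32 ± 0.22, adjusted p = 0.0183). In both FHT1015 libraries it was joined with an adjacent interval that was separate with DMSO, and the summed width of all intervals at the gene changed by only 0.17 (adjusted p = 0.341). Of 73 genes 2 were called wider, against 0.793% of all genes wider and 0.823% narrower, and neither call remained with every library left out in turn.

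With KCl for 30 min the best interval that the rule gave Rpl13a was not the one at its own start. The ranks of that best interval were 739 and 905 with FHT1015, against 1704 and 2116 with DMSO. At Rpl13a's own start the ranks were 1382 and 1688 with FHT1015, against 2323 and 2209 with DMSO. Without KCl that start ranked 980 and 969 with FHT1015, against 766 and 719 with DMSO. In DMSO, Rpl13a fell with KCl for 30 min (-1.36 ± 0.25, adjusted p = 0.00246), and changed by -1.61 at its start alone (adjusted p = 0.000421).

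The KCl response at 30 min differed between FHT1015 and DMSO at 4 genes, by a test of the difference itself. Rpl13a (1.61 ± 0.35, adjusted p = 0.0143) and Rpl41 (0.76 ± 0.20, adjusted p = 0.0306) responded more positively with FHT1015, against 1.94% of all genes called in that direction. Rpl29 (-0.65 ± 0.15, adjusted p = 0.0202) and Rpl37a (-0.50 ± 0.13, adjusted p = 0.0341) responded more negatively, against 9.81%. Rpl41 ranked 1108 and 1040 with FHT1015 and KCl, 2176 and 2165 with DMSO and KCl, 1251 and 1190 with FHT1015 alone and 1537 and 1372 with DMSO alone. At Rpl13a's own start the difference was 0.96 (adjusted p = 0.0846). None of the 4 calls remained with every library left out in turn, and Rpl29 and Rpl37a were not called with ranks scaled to list length (adjusted p = 0.280 and 0.567). In width limma called 0 of 73 genes, against 0.121% higher and 1.66% lower over all genes, with 13 at an unadjusted p under 0.05.

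Arid2 knockout moved no ribosomal protein gene past the threshold. In the mean of both states limma called 0 of 73 genes in rank, against 0.0213% of all genes in each direction, and 0 in width, against 0% in each. At an unadjusted p under 0.05 there were 4 in rank and 2 in width. Rpl41 ranked 1404 and 1049 in Arid2KO libraries with KCl and 1242 and 1604 without, against 918 and 1357 in non-targeting libraries with KCl and 1571 and 2034 without, so the groups overlapped.

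The Smarcc2 genotypes at DIV18 likewise moved few of these genes. Smarcc2KO with vector against non-targeting neurons gave 0 of 75 in rank (limma), against 1.79% higher and 0.716% lower over all genes, with 6 at an unadjusted p under 0.05. In width it gave 0 of 73, against 0.0687% and 0.0839%, with 2. WT add-back against vector gave 0 of 75 in rank, against 0.535% and 1.28%, with 9, and 0 of 73 in width, against 0.0229% and 0.0458%, with 2. S586E against S586A add-back gave 0 of 75 in rank, against 0.0268% and 0%, with 9. In width 0 were wider and 1 was narrower, against 0% and 0.0305%.

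**Figure D5:**
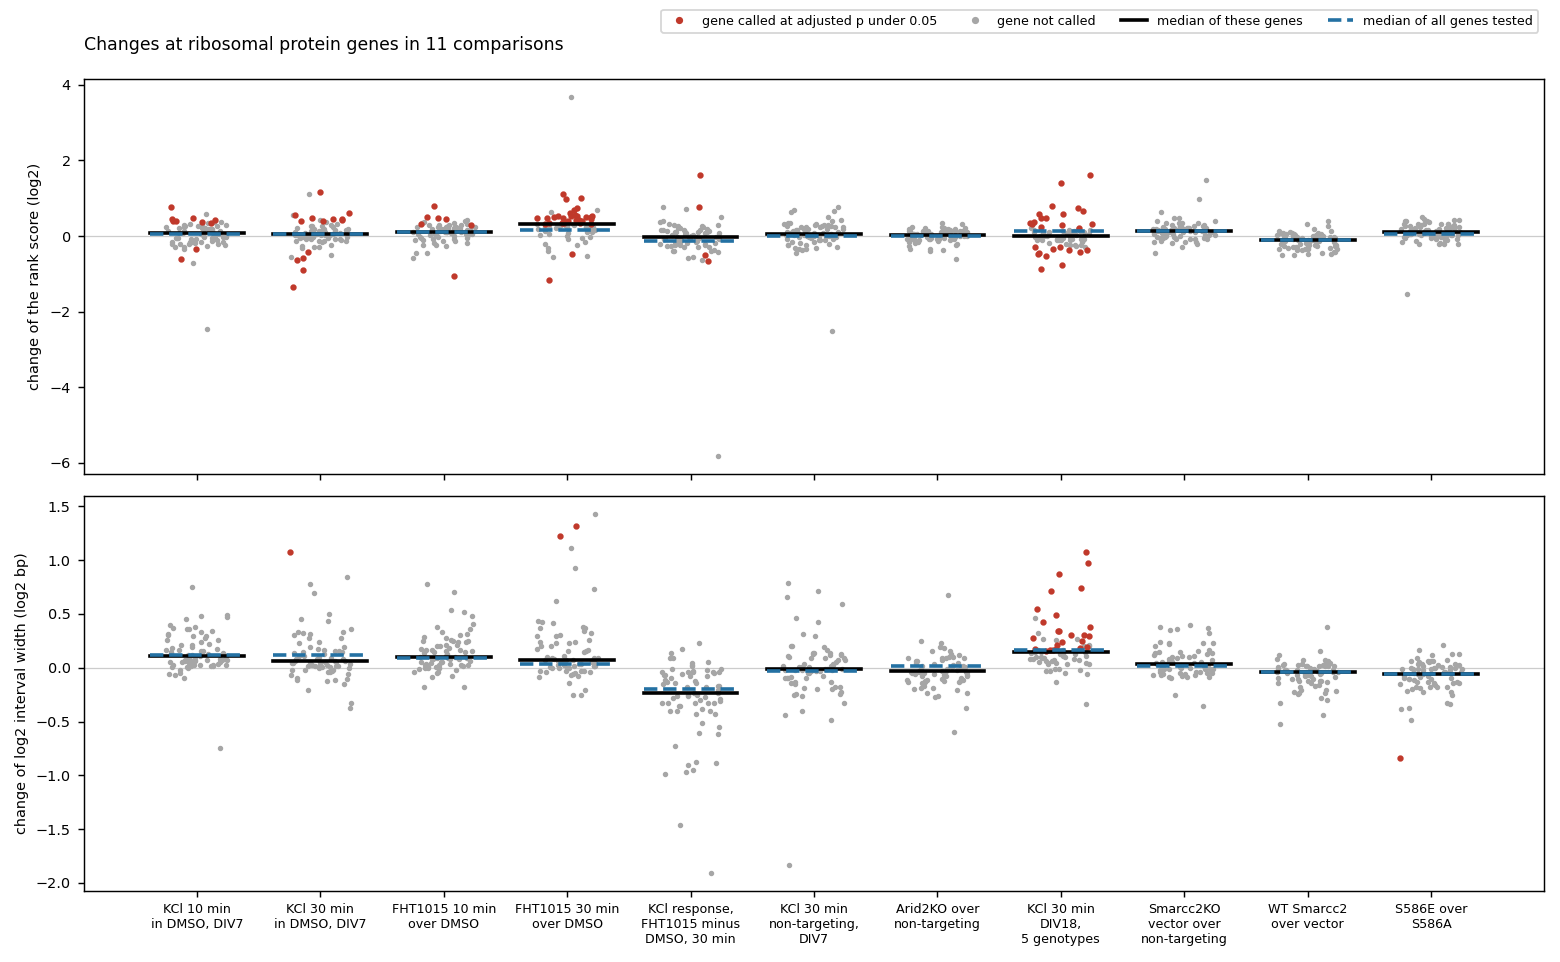
Change of the rank score (top, log2) and of the log2 interval width (bottom) at the ribosomal protein genes in 11 comparisons; points are genes, red where the adjusted p is under 0.05. Black bars are their median and dashed blue bars the median of all genes tested. For rank these are 0.31 and 0.15 with FHT1015 at 30 min and -0.0047 and 0.13 with KCl at DIV18. With ranks scaled to list length the FHT1015 medians at 30 min are -0.47 and -0.60. Those of the KCl response, FHT1015 minus DMSO, are then 0.25 and 0.15.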

How the data were processed

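Peak lists of 44 ATAC-seq libraries on mm10 were used, 1 per library. The submitters' processing notes name, without versions, MACS2 and Bowtie2 beside FastQC, Trim Galore, Picard, SAMtools and bedtools. The deposited lists give each summit a fold enrichment (a ratio), a −log10 p and a −log10 q. The deposited score equals the −log10 p multiplied by 10. All 4 are values of the authors' peak caller and vary with depth, which was unknown, so they only ranked or filtered intervals within a list.

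Summits of an interval were joined, and autosomal intervals were ranked by their best −log10 p (Python 3.11.15, pandas 2.3.3, numpy 2.4.6). Gene ends came from RefSeq's mm10 table. A gene took the best interval overlapping its ends extended by 1 kb. The rank score is floored at 0, and 0 without an interval. Scores and log2 widths were fitted per experiment with limma 3.58.1 (R 4.3.3), 1 mean per group, with adjustment over all genes tested. Ranks were tested where at least 2 libraries held an interval, widths where every library did. Filtering left 73 to 75 of the 77 genes, and the fit was tested on simulated data. The 5 largest calls of each comparison are named, the other genes where their order or merging is described, and results for some genes are not reported here. The genes and lists were chosen with earlier results of these data known. Same-numbered libraries did not deviate together, with a median correlation of -0.00133 to 0.0535. Alternatives were other distances, overlaps, filters, rankings, scalings, width measures and covariates, and leaving out each library.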

Additional observations from a re-analysis of the deposited data

Results flagged for a closer look

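The KCl response of rank at 30 min differed between FHT1015 and DMSO at 4 ribosomal protein genes, by the test of the difference itself in limma. The difference, FHT1015 minus DMSO on the log2 scale, was 1.61 for Rpl13a, 0.76 for Rpl41, -0.65 for Rpl29 and -0.50 for Rpl37a. At Rpl13a's own start it was 0.96 (adjusted p = 0.0846). With 1 library left out in turn, the highest adjusted p passed 0.05 for each of the 4 genes.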

How the results depend on the processing

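Values here are median changes over the ribosomal protein genes (log2) unless a gene is named. Of 231 medians under an alternative other than leaving out a library, 195 moved by less than 1 SD between replicates. These include 22 each for the other distances, the larger overlap, the stricter filter and the replicate block. The block could not move a median, as every group held both replicate numbers. Only 1 is from ranks scaled to list length, which apply to rank alone, and 10 are from interval number in the model. With ranks scaled to each library's own list length the medians were -0.094 (KCl 10 min in DMSO), -0.096 (KCl 30 min in DMSO), -0.42 and -0.47 (FHT1015 at 10 and 30 min), 0.25 (KCl response, FHT1015 minus DMSO), -0.29 (KCl, non-targeting, DIV7), -0.19 (KCl, DIV18), -0.18 (Smarcc2KO with vector), 0.074 (WT add-back) and -0.0066 (S586E over S586A). Each sign is opposite to that of the reported median, except with KCl at DIV18. Single genes turned at FHT1015 10 min (Rpl19 -0.021, Rpl11 -0.046, Rpl29 -0.081) and 30 min (Rpl29 -0.045), as the scaling takes list length into the score. With summits ranked on their own, Rpl7 was -0.29 at KCl 10 min, and medians were 0.0040 (KCl 10 min), 0.092 and 0.28 (FHT1015 10 and 30 min). The 5′ end alone gave 0.014 (KCl 10 min, rank) and widths of 0.095 (FHT1015 30 min), -0.29 (FHT1015 minus DMSO) and -0.071 (WT add-back). With interval number (log2) in the model, ranks were 0.10 and 0.21 (FHT1015 10 and 30 min) and -0.010 (non-targeting, DIV7, turned). Widths were then 0.21 and 0.14 (KCl 10 and 30 min), 0.35 and 0.47 (FHT1015), -0.34 (FHT1015 minus DMSO), 0.19 (non-targeting, DIV7), 0.24 (KCl, DIV18), 0.21 (Smarcc2KO with vector) and -0.18 (WT add-back). Summed width gave 0.054 and -0.0029 (KCl 10 and 30 min, the second turned), 0.28 and 0.25 (FHT1015), -0.37 (FHT1015 minus DMSO) and -0.084 (WT add-back), and the widest interval 0.16 (FHT1015 30 min). Apart from construction, the cause was not tested.

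Leaving out 1 library gave medians of 0.092 to 0.16 (FHT1015 10 min, rank), 0.067 to 0.17 (its width), 0.27 to 0.34 (FHT1015 30 min, rank), 0.047 to 0.13 (its width), -0.29 to -0.15 (FHT1015 minus DMSO, width), 0.032 to 0.13 and -0.078 to 0.048 (non-targeting DIV7, rank and width) and -0.068 to -0.037 (WT add-back, width). A lone library is then assumed to vary like the other groups. Genes called higher in rank were 1 to 2 in place of 8 (KCl 10 min), 3 to 8 in place of 9 (KCl 30 min), 2 to 3 in place of 6 (FHT1015 10 min) and 15 to 24 in place of 29 (FHT1015 30 min, fewest without the first unstimulated DMSO library). With interval number in the model 0 genes rose with FHT1015 at either time and 2 at KCl 10 min, and 4 were wider at KCl 10 min. Summed width called 15 genes wider with FHT1015 at 30 min in place of 2, and 6 narrower with KCl at DIV18 in place of 0. The widest interval called 7 wider with FHT1015 at 30 min. Summits on their own called 2 higher at KCl 10 min and 2 at FHT1015 10 min, the 5′ end 4 at KCl 10 min, and no filter on genes 3. The shares of all genes called under these alternatives are not given here. The counts therefore describe the ribosomal protein genes alone.

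Same-numbered libraries share only a number (correlations of -0.157 to 0.234). With a replicate block 27 genes were wider at DIV18 in place of 25, and 1 fell with FHT1015 at 30 min in place of 2. Unknown depth and 2 libraries per group limit precision.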

Other observations

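Interval widths at DIV18 also moved in gene lists around the ribosome (limma, adjusted p under 0.05, KCl over unstimulated). Of the 7 ribosomal protein genes that the rule leaves out, 4 were wider and 1 was narrower with KCl, with a median change of 0.26. Of 27 genes of rRNA processing and RNA polymerase I 12 were wider and 0 narrower, with a median of 0.19, and of 75 mitochondrial ribosomal protein genes 19 were wider and 2 narrower, with a median of 0.11. Of 65 translation factors 17 were wider and 1 narrower (median 0.16), and of 43 proteasome subunits 13 and 1 (median 0.19). All 11 early activity genes tested were wider, with a median of 1.55. Over all genes 33.7% were wider, with a median of 0.16. No list was tested against the others.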
